A study of Mus musculus with 24 samples.

Results

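The 10 genes described here are used as markers of the supporting tissue and the vessels of the spleen. They are the collagen chains Col1a1, Col1a2 and Col3a1, the chemokines Cxcl13, Ccl19, Ccl21a and Cxcl12, and the vessel genes Pecam1, Stab2 and Plvap. They were chosen by name, and all 10 were found by symbol among the 55414 genes of the deposited RNA tables. The study set the spleens of mice carrying a CT-26 tumour beside normal spleens, CT-26 being a colon carcinoma line of the BALB/c strain. Of its 24 libraries the 8 RNA-seq libraries are used here, 4 titled CT-26 and 4 titled control, and the 16 T and B cell receptor libraries are not analysed here. All 8 come from spleen of BALB/c mice kept free of specific pathogens, with splenocyte given as the cell type.

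The labels contradict each other on which set carried the tumour. The libraries titled CT-26 bear the treatment entry of healthy controls, and those titled control bear the entry of mice given CT-26 cells. Both entries divide the libraries in the same way, so the sets are called by their titles and no difference below is read as an effect of a tumour. The treatment text, which all the libraries carry alike, has the CT-26 cells given into the right side of mice aged 8 weeks. The sex, the interval between injection and sampling, and the number of mice behind the libraries are not given in the sources used here. Nothing in the labels says that the libraries of a set came from separate mice, so the p-values measure the spread between these libraries, which may be technical.

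Fibroblasts and fibroblastic reticular cells build the collagen fibres of the splenic capsule, trabeculae and reticulum. Stromal cells of the white pulp also hold lymphocytes in place with chemokines: CXCL13 draws B cells into follicles through the receptor CXCR5, CCL19 and CCL21 draw T cells and dendritic cells into the T zone through CCR7, and CXCL12 acts through CXCR4. The red pulp is drained by venous sinuses, whose lining cells in the mouse carry scavenger receptors such as STAB2. Transcripts of this tissue are a minor part of spleen RNA, and stroma is partly lost when a spleen is turned into a cell suspension.

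Totals lay between 735298 and 1152550 counts in the titled CT-26 libraries and between 907109 and 1970950 in the titled control libraries. The 10 genes together held between 159 and 382 counts per titled CT-26 library and between 204 and 585 per titled control library, so that most of their values rest on small counts. Mitochondrial genes took 37.5 ± 3.92% of counts in the titled CT-26 set and 54.8 ± 9.15% in the titled control set (SD, n = 4 each). Levels below are CPM, that is, counts scaled to a common total by TMM, a normalisation that lines up the bulk of the genes, and 3 counts correspond to between 1.8 and 3.41 CPM. Blood cell transcripts differed widely between the sets. The summed level of 10 B cell markers was 346 to 718 CPM in titled CT-26 and 1990 to 3140 CPM in titled control libraries, and that of 10 neutrophil markers was 3320 to 8060 CPM in titled CT-26 and 444 to 1170 CPM in titled control libraries. In such bulk RNA, fewer cells of a type and less RNA per cell cannot be told apart, and the part of these shifts in the values below was not tested.

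Other markers of the named cell types ranged from absent to well counted. Over all 8 libraries the endothelial cadherin gene Cdh5 had 11 counts, the VEGF receptor gene Kdr 10 and the angiopoietin receptor gene Tek 2. The mural and fibroblast receptor gene Pdgfrb had 5 counts, the reticular cell gene Pdpn 1, and Lyve1, Lum and Grem1 had 0, whereas Pdgfra had 36 and the matrix gene Dcn 51. Better counted were the endothelial receptor gene Tie1 with 80 counts and Cd93 with 134, and Mfge8 with 226 and Clu with 337, both expressed by follicular dendritic cells. Several defining markers were thus at or near 0 while others of the same lists were not, and the 10 genes are described one by one. Which cells the counts of the 10 genes came from was not tested.

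Of the 10 genes, 7 passed the filter on low counts, and 1 of these, Pecam1, passed the test between the sets. The test was edgeR's quasi-likelihood test with Benjamini-Hochberg adjustment over 6408 genes at 0.05, where 42.8% of all genes tested were called 21.2% higher and 21.6% lower in titled CT-26. Col3a1, Ccl19 and Ccl21a did not pass the filter. The median log2 fold change, titled CT-26 minus titled control, was -0.22 over the 7 genes and -0.02 over all genes tested. The ranges of the 2 sets overlapped for every one of the 10 genes, whereas they did not overlap for 38.5% of the genes tested. Pecam1 was lower in titled CT-26, the highest mean difference upward was that of Col1a1, and the differences between libraries of 1 set were for most members as large as those between the sets.

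**Figure D1:**
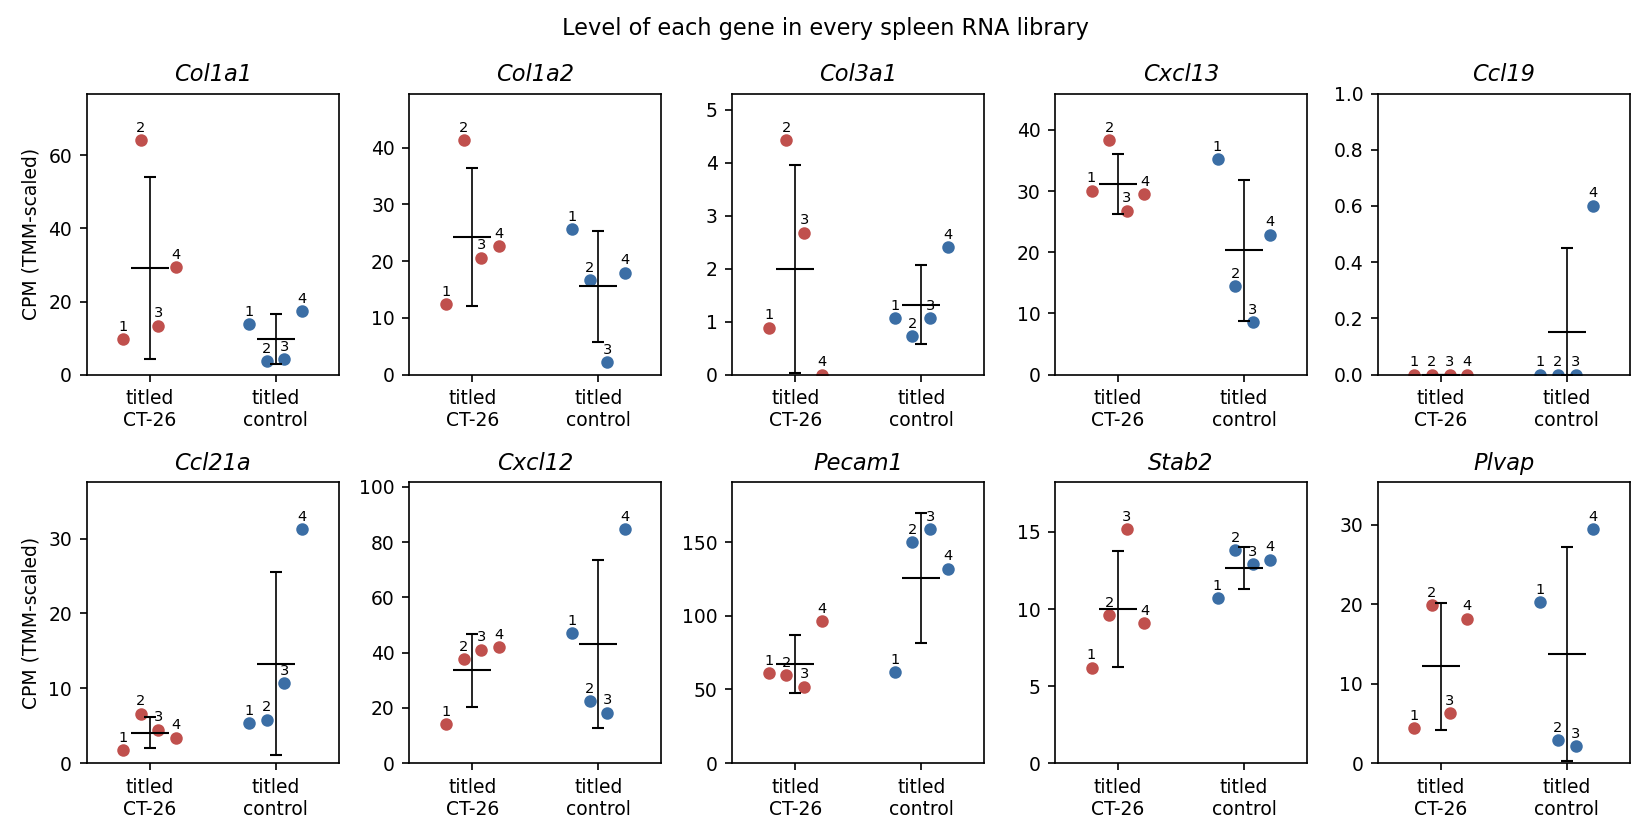
Level of each of the 10 genes in CPM (linear vertical axis, from 0) in the 4 titled CT-26 and 4 titled control libraries. Points are libraries numbered by replicate, the line is the mean and the bar the SD, cut at 0. The sets overlap in every panel, titled CT-26 replicate 2 stands high for the collagens and titled control replicate 4 for Ccl21a, Cxcl12 and Plvap.

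Col1a1 (ENSMUSG00000001506, chr11:94827050-94843868, plus strand, GRCm39) encodes the alpha 1 chain of type I collagen, the main fibre of capsule and trabeculae. It had 9.73, 64.1, 13.4 and 29.5 CPM in titled CT-26 libraries 1 to 4, against 13.9, 3.62, 4.3 and 17.4 CPM in titled control libraries 1 to 4. Titled CT-26 2, with 87 counts, stood above all other libraries, and 2 titled control libraries had only 5 and 4 counts. The mean was 29.2 ± 24.8 CPM in titled CT-26 and 9.81 ± 6.92 CPM in titled control (SD, n = 4 each). The log2 fold change was 1.55 ± 0.68 (SE, 95% interval 0.03 to 3.06), which did not pass the test (edgeR adjusted p = 0.0931). Without titled CT-26 2 it was 0.77 (adjusted p = 0.24), without titled CT-26 1 it was 1.85 (adjusted p = 0.0258) and without titled control 4 it was 2.09 (adjusted p = 0.0469), so that the call turns on single libraries.

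Col1a2 (ENSMUSG00000029661, chr6:4504814-4541544, plus strand) encodes the partner chain, of which 1 joins each pair of alpha 1 chains in the type I triple helix. Its level was 12.4, 41.3, 20.6 and 22.7 CPM in titled CT-26 libraries, against 25.6, 16.7, 2.15 and 18.0 CPM in titled control libraries. Titled CT-26 2 was again highest, and titled control 3, with 2 counts, lay far below the rest of its set. The sets overlapped over most of their range, and the log2 fold change of 0.63 ± 0.44 (SE, 95% interval -0.3 to 1.56) did not pass the test (edgeR adjusted p = 0.268).

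Both chains go into the same protein, and the ratio of any 2 genes within a library is free of scaling between libraries. Col1a1 made up 44.0, 60.8, 39.5 and 56.5% of the counts of the pair in titled CT-26 libraries, against 35.1, 17.9, 66.7 and 49.2% in titled control libraries. The exact Clopper-Pearson 95% intervals, which like the 3-count floors cover counting error only, are wide: 52.3 to 68.9% in titled CT-26 2, which had the most counts, against 6.06 to 36.9% in titled control 2 and 22.3 to 95.7% in titled control 3. The interval of titled CT-26 4 was 41.1 to 71.1%. The share of titled control 2 thus lay below those of titled CT-26 2 and 4 with no overlap of intervals, while the intervals of every other pair of libraries overlapped.

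Col3a1 (ENSMUSG00000026043, chr1:45350698-45388866, plus strand), the type III chain of reticular fibres, had 1, 6, 3 and 0 counts in titled CT-26 libraries and 1, 1, 1 and 4 counts in titled control libraries. These are at or near the floor, and a difference between the sets was not detectable at this depth. In a fit with no filter its log2 fold change was 0.66 ± 0.96 (edgeR adjusted p = 0.635), and without titled CT-26 2 it was -0.04. On the same counts that fit gave Col1a1 an SE of 0.36 against 0.68 in the main fit, and Stab2 0.41 against 0.37. Its p-values may thus understate the spread between libraries for genes that vary widely, and calls made below only in that fit carry this limit.

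Summed over the 3 chains, collagen transcripts came to 23.0, 110, 36.7 and 52.2 CPM in titled CT-26 libraries, against 40.6, 21, 7.52 and 37.9 CPM in titled control libraries. The mean was 55.5 ± 38.3 CPM in titled CT-26 and 26.8 ± 15.5 CPM in titled control, and titled CT-26 1 lay inside the titled control range.

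Of 28 other matrix protein genes, 8 were tested and 1 was called higher, with 0 lower, and the median log2 fold change was 0.53. The one called was Fn1, the gene of fibronectin, at 2.66 ± 0.76 (edgeR adjusted p = 0.0116), a call that ended with a lane term (adjusted p = 0.145) and with DESeq2 (adjusted p = 0.0568). Without titled control 3, where Fn1 stood high, the value was 4.40 (edgeR adjusted p = 1.85e-05). Col4a1 and Col4a2, the basement membrane collagens, had log2 fold changes of 1.10 and 0.84, and Sparc, a collagen-binding matrix protein, had 0.62, none of them called. Titled CT-26 2 held 87 of the counts of Col4a1 and 80 of those of Col4a2, and without it the values were 0.34 for Col4a1, 0.29 for Col4a2 and 0.37 for Sparc. Without TMM, Col4a2 (1.31, edgeR adjusted p = 0.00518) and Sparc (1.05, edgeR adjusted p = 0.0087) were called higher. Col4a2 was also called without titled control 1 (1.25, edgeR adjusted p = 0.0446), and Sparc without titled CT-26 1, titled CT-26 3 or titled control 4 (0.81 to 0.83, edgeR adjusted p between 0.0324 and 0.0398). With no filter, 4 of 27 matrix genes were called higher (Fn1, Col4a2, Col5a2 and Dcn) and 0 lower, where 18.0% of 18766 genes were called and 8.87% called higher.

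Among 16 collagen-processing genes, 5 were tested and 1 was called lower, Colgalt1, a collagen galactosyltransferase, at -1.09 (edgeR adjusted p = 0.00809), with a list median of -0.14. That call ended without TMM, at -0.73, and with a lane term. Lox, whose product crosslinks collagen, was under the filter with 3, 29, 9 and 6 counts in titled CT-26 libraries and 2, 1, 0 and 1 in titled control libraries. It was called in the fit with no filter at 3.52 (edgeR adjusted p = 1.33e-05), a fit whose p-values may understate the spread between libraries. Of 10 matrix proteases and inhibitors, 2 were tested and 1 was called higher, Mmp8, the neutrophil collagenase, at 2.19 (edgeR adjusted p = 9.62e-07). The neutrophil markers named above were higher in the same libraries, 8 of 10 being called, where 21.2% of all genes tested were called higher. Mmp9, under the filter, was called higher in the fit with no filter at 2.16 (edgeR adjusted p = 8.23e-05). In the TGF-beta pathway, a main inducer of collagen genes in fibroblasts, 5 of 12 genes were tested. There 2 were called lower, the signal transducer Smad4 at -0.80 (edgeR adjusted p = 0.0168) and the repressor Skil at -0.84 (edgeR adjusted p = 0.0214), and 0 higher, with a median of -0.8. Both calls ended without TMM, at -0.43 for Smad4 and -0.49 for Skil, with no filter, with a lane term, and with any of several single libraries left out. In the fit with no filter, Tgfbr1 was called lower at -1.68 (edgeR adjusted p = 0.00407). Ltbp1 was called higher there at 4.59 (edgeR adjusted p = 0.0155), with 11 counts in titled CT-26 and 0 in titled control.

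**Figure D2:**
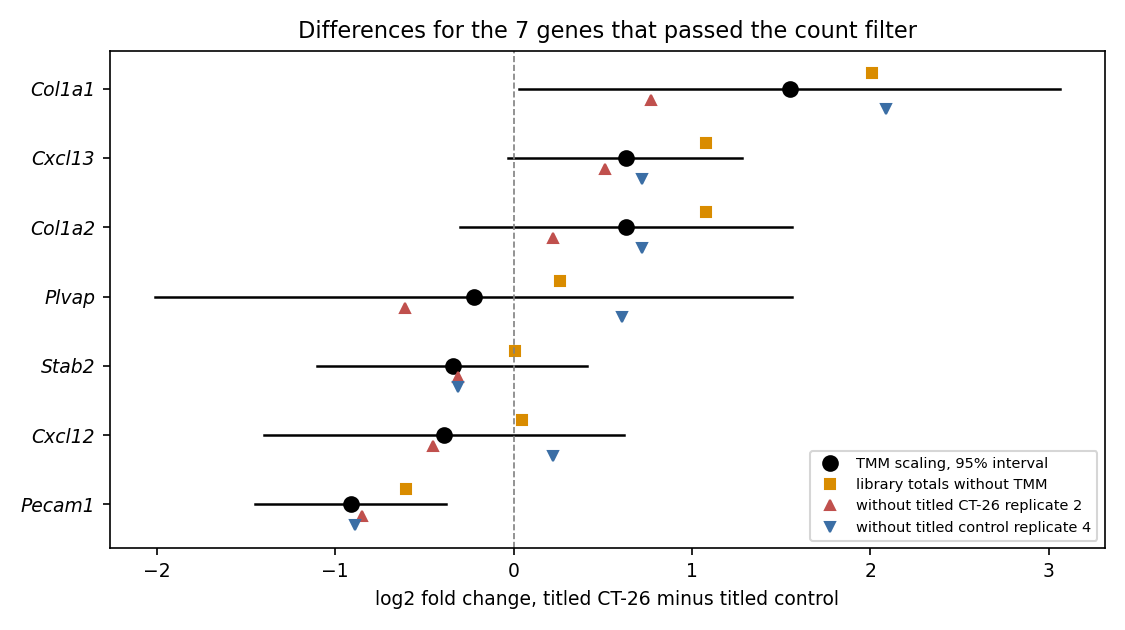
Log2 fold change of the members, titled CT-26 minus titled control, from edgeR. Black points with 95% intervals use TMM, squares use library totals without TMM, and triangles leave out titled CT-26 2 or titled control 4. Pecam1 lies below 0 in each of these, Col1a1 moves between 0.77 and 2.09 with the library left out, and Plvap changes sign.

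Among the chemokines, Cxcl13 (ENSMUSG00000023078, chr5:96104810-96108927, plus strand), the B cell attractant made by follicular stroma, was measured most evenly. It had 30.1, 38.3, 26.8 and 29.5 CPM in titled CT-26 libraries, against 35.2, 14.5, 8.59 and 22.9 CPM in titled control libraries. The titled CT-26 libraries lay within a ratio of 1.43 of each other, and the titled control libraries spread over a ratio of 4.1 and reached both above and below most of them. Set against counting noise alone, the chi-square per degree of freedom was 0.981 in titled CT-26 and 6.51 in titled control. The log2 fold change of 0.63 ± 0.32 (SE, 95% interval -0.03 to 1.28) did not pass the test (edgeR adjusted p = 0.113), though it did without titled control 1, at 0.98 (adjusted p = 0.0189).

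Cxcl12 (ENSMUSG00000061353, chr6:117145496-117158328, plus strand) is made by reticular and perivascular cells and retains CXCR4-bearing cells. Its level was 14.1, 37.6, 41.1 and 42.0 CPM in titled CT-26 libraries, against 47.0, 22.5, 18.3 and 84.8 CPM in titled control libraries. In the titled CT-26 set 3 libraries lay close together and library 1 stood low, while the titled control set ran over a ratio of 4.64 with library 4 highest. The log2 fold change was -0.39 ± 0.46 (SE, 95% interval -1.4 to 0.62, edgeR adjusted p = 0.529). It was 0.22 without titled control 4, so that this library sets its sign.

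The T zone pair was barely seen. Ccl19 (ENSMUSG00000071005, chr4:42754525-42756577, minus strand) had 0 counts in 7 libraries and 1 count in titled control 4. Ccl21a (ENSMUSG00000094686, chr4:42772860-42773993, minus strand), the form of CCL21 with serine at the position for which the mouse forms are named, had 2, 9, 5 and 3 counts in titled CT-26 libraries, against 5, 8, 10 and 52 counts in titled control libraries. In CPM these were 1.77, 6.63, 4.47 and 3.41 in titled CT-26 and 5.34, 5.8, 10.7 and 31.3 in titled control. Titled control 4 alone held more counts than the other 7 libraries together. In the fit with no filter the log2 fold change was -1.64 ± 0.48 (edgeR adjusted p = 0.00503), where 9.17% of the genes of that fit were called lower. Without titled control 4 it was -0.69 ± 0.62 (adjusted p = 0.472), so the call rests on that library.

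The counting of this pair is also uncertain, because the mouse genome carries near-identical copies of both genes and fragments that map to more than 1 place were not counted. In the GENCODE M21 transcripts, 71.6% of the 50-base windows of Ccl21a and 52.0% of those of Ccl19 also occur in another gene, against at most 1.54% for the other 8 members. The 402-base transcript of Ccl21b is 99.5% identical to its stretch of Ccl21a and differs at 2 bases. Both places are printed from GENCODE M21, chromosome 4, on the transcribed strand with 20 bases on each side and the differing base in capitals. Within this stretch these bases tell a fragment of Ccl21a from one of Ccl21b, and the other copies were not compared at them.
Ccl21a: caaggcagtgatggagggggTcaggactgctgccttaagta
Ccl21b: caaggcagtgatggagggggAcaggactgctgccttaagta
Ccl21a: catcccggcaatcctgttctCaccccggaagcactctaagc
Ccl21b: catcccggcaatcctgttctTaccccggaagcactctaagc
Ccl21b and the copies Gm10591 and Gm13304 had 0 counts in all 8 libraries. Gm21541, which also shares windows with Ccl21a, is not among the copies counted here. How many fragments of Ccl21a and Ccl19 went uncounted for this reason was not tested.

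Summed over the 4 chemokines, levels were 46.0, 82.5, 72.4 and 74.9 CPM in titled CT-26 libraries, against 87.6, 42.8, 37.6 and 140 CPM in titled control libraries. The means were 69.0 ± 15.9 CPM in titled CT-26 and 77.0 ± 47.6 CPM in titled control, and the titled control range enclosed that of titled CT-26.

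Of 6 receptors and scavengers of these chemokines, 4 were tested, 2 were called lower and 0 higher, with a median of -0.95. Cxcr5, the receptor of CXCL13 on follicular B and T cells, had 6.19, 5.16, 3.58 and 4.54 CPM in titled CT-26 libraries, against 15.0, 31.2, 19.3 and 22.9 CPM in titled control libraries. The sets did not overlap, and the log2 fold change was -2.17 ± 0.38 (edgeR adjusted p = 3.71e-05). B cell markers were lower beside it, 9 of 10 being called, where 21.6% of all genes tested were called lower. The median log2 fold change of these markers was -2.15. Dpp4, the protease that trims CXCL12, was lower at -1.26 (edgeR adjusted p = 0.000436). Ccr7, the receptor of CCL19 and CCL21, had a log2 fold change of -0.65 (edgeR adjusted p = 0.0891) and Cxcr4, the receptor of CXCL12, 0.59 (edgeR adjusted p = 0.11). Ccr7 was called lower without titled CT-26 1 (-1.08, edgeR adjusted p = 0.00489). Cxcr4 was called higher without TMM (0.99, edgeR adjusted p = 0.00404), with no filter (0.66, edgeR adjusted p = 0.0426), without titled CT-26 2 (0.80, edgeR adjusted p = 0.0285) and without titled control 1 (0.87, edgeR adjusted p = 0.0231).

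Lymphotoxin and non-canonical NF-kB signalling from lymphocytes keeps Cxcl13, Ccl19 and Ccl21 expressed in mouse splenic stroma. Of 11 genes of this pathway 6 were tested, 2 were called lower and 0 higher, with a median of -0.72. These were the cytokine gene Tnf at -1.74 (edgeR adjusted p = 0.00801) and the kinase gene Chuk at -0.72 (edgeR adjusted p = 0.0309), of which Chuk was not called without TMM, at -0.4, with no filter or with a lane term. Ltb, which encodes lymphotoxin beta, was under the filter and was called in the fit with no filter at -2.56 (edgeR adjusted p = 0.000749). Nfkb2, also under the filter, was called lower in that fit at -1.87 (edgeR adjusted p = 0.0259). Of 11 further stromal chemokine genes 9 were found by symbol and none of these passed the filter, and in the fit with no filter Cxcl9, an interferon-induced chemokine, was lower at -4.18 (edgeR adjusted p = 2.41e-08).

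**Figure D3:**
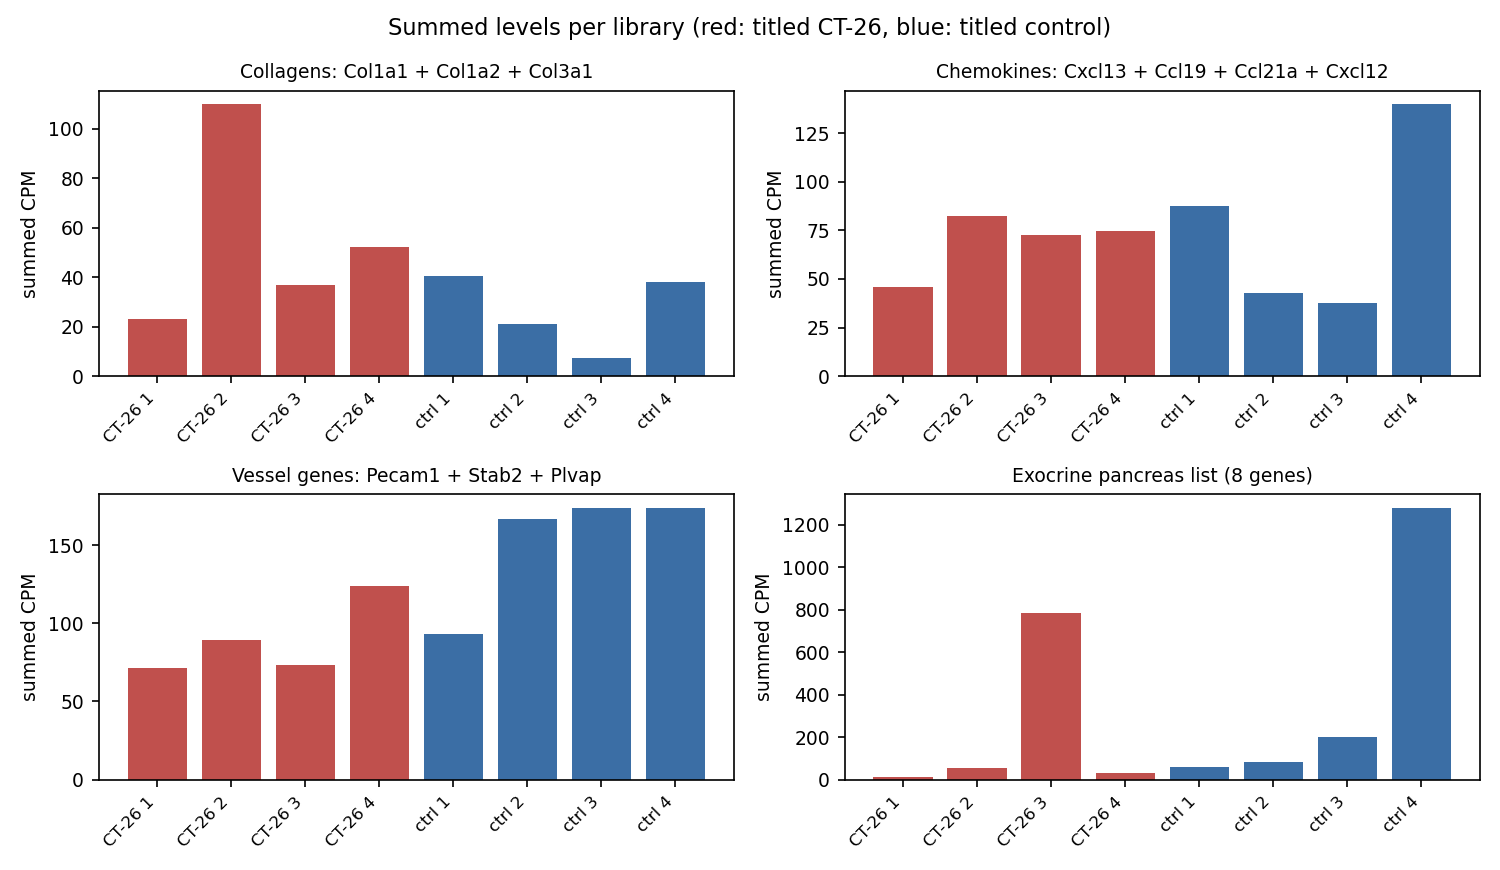
Summed level in CPM (bars from 0) of the 3 collagens, the 4 chemokines, the 3 vessel genes and the 8 exocrine pancreas markers in each titled CT-26 and titled control library. Collagens peak in titled CT-26 2 at 110 CPM, chemokines in titled control 4 at 140 CPM, and pancreas markers in titled CT-26 3 at 785 CPM and titled control 4 at 1280 CPM. Pecam1, which platelets and many leukocytes also carry, makes up most of the vessel sum in every library.

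Among the vessel genes, Pecam1 (ENSMUSG00000020717, chr11:106545043-106641454, minus strand) was the most abundant member by counts. It encodes PECAM-1 or CD31, an adhesion molecule at endothelial junctions that platelets and many leukocytes also carry. It had 61.0, 59.7, 51.9 and 96.5 CPM in titled CT-26 libraries, against 61.9, 150, 159 and 132 CPM in titled control libraries. In the titled control set 3 libraries lay above all titled CT-26 libraries, and titled control 1 lay inside the titled CT-26 range. The mean was 67.3 ± 19.9 CPM in titled CT-26 and 126 ± 44.0 CPM in titled control (SD, n = 4 each), and the log2 fold change of -0.91 ± 0.26 (SE, 95% interval -1.45 to -0.38) passed the test (edgeR adjusted p = 0.00539). It was lower with each library left out in turn (-1.13 to -0.79, adjusted p between 0.000385 and 0.0263). With library totals in place of TMM the value was -0.60 (adjusted p = 0.121) and the call ended. That scaling moved the median of all genes by 0.37 on the log2 scale and called 3 members, Col1a1 (2.01, edgeR adjusted p = 0.0165), Col1a2 (1.08, edgeR adjusted p = 0.0243) and Cxcl13 (1.08, edgeR adjusted p = 0.00794), all higher, where 41.5% of genes were called and 30.2% called higher. Relative to the shift of all genes these 3 lay at about the values given above for TMM.

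Stab2 (ENSMUSG00000035459, chr10:86677062-86843889, minus strand) encodes stabilin-2, a hyaluronan scavenger receptor of sinusoidal endothelium. Its level was 6.19, 9.58, 15.2 and 9.08 CPM in titled CT-26 libraries, against 10.7, 13.8, 12.9 and 13.2 CPM in titled control libraries. The titled control values were nearly equal, and only titled CT-26 3 lay above them. Spread over counting noise was small, with a chi-square per degree of freedom of 1.58 in titled CT-26 and 0.151 in titled control. The log2 fold change was -0.34 ± 0.37 (SE, 95% interval -1.1 to 0.41, edgeR adjusted p = 0.477).

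Plvap (ENSMUSG00000034845, chr8:71950409-71964396, minus strand) encodes the protein of the diaphragms that span endothelial fenestrae. It had 4.42, 19.9, 6.26 and 18.2 CPM in titled CT-26 libraries, against 20.3, 2.9, 2.15 and 29.5 CPM in titled control libraries. Each set held a low pair and a high pair of libraries, and the ratio of highest to lowest was 4.5 in titled CT-26 and 13.7 in titled control. The log2 fold change was -0.22 ± 0.79 (SE, 95% interval -2.01 to 1.56, edgeR adjusted p = 0.845), with a sign that changed with the library left out. Its gene overlaps Gtpbp3 on the opposite strand and counting used no strand, although Gtpbp3 had only 11 counts over the 8 libraries.

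The 3 vessel genes did not share 1 pattern over the libraries: titled control 1 was lowest of its set for Pecam1 and Stab2 but high for Plvap. Of 22 other endothelial genes, 3 were tested, 1 was called higher and 0 lower, with a median of 0.64. Tie1, an endothelial receptor kinase, had 8.84, 15.5, 14.3 and 17.0 CPM in titled CT-26 libraries, against 7.48, 1.45, 1.07 and 4.81 CPM in titled control libraries. The sets did not overlap and the log2 fold change was 1.89 ± 0.48 (edgeR adjusted p = 0.00194), opposite in sign to Pecam1. With a lane term, to whose contrast titled CT-26 3 and titled control 2 add nothing, Tie1 was at 1.57 and not called (edgeR adjusted p = 0.0564). In the fit with no filter, Tie1, Esam and Cd34 were called higher and Icam2 lower. The endothelial genes Cdh5, Kdr and Tek, with 11, 10 and 2 counts over all 8 libraries, were below the filter. Which cells the counts of Tie1, Esam and Cd34 came from was not tested.

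Platelets and megakaryocytes carry PECAM-1 too. Of their 8 markers 3 were tested and none was called (median log2 fold change 1.13). With no filter 5 of 8 were called higher, where 8.87% of 18766 genes were, in a fit whose p-values may understate the spread. Among these 5 the platelet factor gene Pf4, at 1.11 (edgeR adjusted p = 0.0676), was also called higher without TMM (1.57, edgeR adjusted p = 0.00239). Markers of T cells, some of which carry PECAM-1, were lower, 10 of 10 being called. Among other leukocytes, B cell markers were lower, 9 of 10 being called, and neutrophil markers higher, 8 of 10 being called. Over all genes tested, 21.6% were called lower and 21.2% higher. Of 11 sinus and scavenger receptor genes 4 were tested. There Cd36, a fatty acid and scavenger receptor also found on macrophages and platelets, was higher at 0.81 (edgeR adjusted p = 0.00557, though 0.69 and not called with a lane term), and Mrc1, the mannose receptor gene also found in macrophages, was lower at -1.85 (edgeR adjusted p = 4.93e-06). Red pulp macrophage markers summed to 966 to 1230 CPM in titled CT-26 and 1800 to 2050 CPM in titled control libraries, with 5 of 9 tested called lower. The part of these other cells in the level of Pecam1 was not tested.

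Per kilobase of merged exons, levels can be compared between genes. In titled CT-26 the order was Cxcl13 at 27.1 ± 4.31 CPM per kb, Pecam1 at 10.8 ± 3.2, Plvap at 6.13 ± 4.01, Ccl21a at 4.68 ± 2.34, Col1a1 at 4.45 ± 3.78, Cxcl12 at 4.12 ± 1.61, Col1a2 at 1.95 ± 0.981, Stab2 at 1.14 ± 0.43, Col3a1 at 0.203 ± 0.2 and Ccl19 at 0. Cxcl13 stood apart from the rest. The SD ranges of Pecam1 and Plvap overlapped, though neither mean lay within the SD of the other. The neighbours from Plvap to Cxcl12 lay well within each other's SD. In titled control, levels per kilobase were 20.2 ± 7.06 CPM for Pecam1, 17.6 ± 10 for Cxcl13, 15.3 ± 14.1 for Ccl21a, 6.9 ± 6.77 for Plvap, 5.28 ± 3.73 for Cxcl12, 1.49 ± 1.05 for Col1a1, 1.44 ± 0.155 for Stab2, 1.26 ± 0.789 for Col1a2, 0.173 ± 0.347 for Ccl19 and 0.134 ± 0.0757 for Col3a1. There the first 3 lay within each other's SD. Col1a1, Stab2 and Col1a2 came within the SDs of the collagens, though Col1a2 lay outside the narrow SD of Stab2. The place of Ccl21a in this order rests on titled control 4, which had 31.3 CPM against 5.34 to 10.7 CPM in the other 3 titled control libraries. Merged exon length overstates the transcript for genes with long alternative exons, and fragments shared between copies lower the values of Ccl21a and Ccl19.

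Single libraries carried much of the spread. Titled CT-26 2 was the highest of its set for 6 of the 10 genes and titled control 4 for 6, while titled control 3 was the lowest of its set for 4. Exocrine pancreas markers, digestive enzyme genes of the organ that lies against the spleen, summed to 11.5, 53.8, 785 and 32.9 CPM in titled CT-26 libraries, against 60.9, 83.4, 201 and 1280 CPM in titled control libraries. Titled control 4, with the highest Cxcl12, Ccl21a and Plvap, was also the highest of all for these markers. Titled CT-26 3, the next highest for them, had 41.1 CPM of Cxcl12, 4.47 CPM of Ccl21a and 6.26 CPM of Plvap. None of these 3 values was the highest of the titled CT-26 set. Of the 8 pancreas markers 3 were tested and 1 was called lower, the elastase gene Cela1 at -2.06 (edgeR adjusted p = 0.00289), or -1.20 without titled control 4. Pnliprp1, under the filter, was called lower in the fit with no filter at -3.67 (edgeR adjusted p = 0.00323). Titled control 4 held 55 of its 59 titled control counts. Mesothelial and epithelial markers summed to at most 7.96 CPM and adipocyte markers to at most 3.62 CPM in any library. The part of pancreas in the member genes was not tested. Without both titled CT-26 2 and titled control 4, Col1a1 was at 1.29 (edgeR adjusted p = 0.0565) and Pecam1 at -0.84 (edgeR adjusted p = 0.0331), and Plvap fell under the filter.

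The deposited file names carry a lane-style tag that no label explains. It is read here as the sequencing lane, as is the lane term named above, and 2 such lanes held libraries of both sets. In lane 1, with titled CT-26 2 and 4 and titled control 3, the log2 ratio of mean CPM was 3.45 for Col1a1, 3.9 for Col1a2, 1.98 for Cxcl13, 1.12 for Cxcl12, 3.15 for Plvap, -0.47 for Stab2 and -1.03 for Pecam1. In lane 2, with titled CT-26 1 and titled control 1 and 4, it was -0.69 for Col1a1, -0.82 for Col1a2, 0.05 for Cxcl13, -2.22 for Cxcl12, -2.49 for Plvap, -0.95 for Stab2 and -0.67 for Pecam1. Both collagens, Cxcl12 and Plvap thus pointed in opposite directions in the 2 lanes, whereas Pecam1 and Stab2 were lower in titled CT-26 in both. With lane as a term in the fit Pecam1 stayed called at -0.87 (edgeR adjusted p = 0.0235), and Col1a1 was at 1.10 (edgeR adjusted p = 0.318). Each lane held 3 of the libraries at most, so these ratios carry no test. Lane 3 held only titled CT-26 3 and lane 4 only titled control 2, so these libraries add nothing to the contrast once lane is a term. Whether a call ended with a lane term through lane itself or through this loss of libraries was not tested.

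Across the 8 libraries with each set's mean removed, some members varied together. These correlations are descriptions without a test, chosen from 10 pairs of the 5 best-counted members, and the points share libraries, depth and scaling. Col1a2 and Cxcl13 gave r = 0.845 and rho = 0.762, and r was 0.569 without titled control 3, the library with the lowest level of both. Col1a1 and Cxcl12 gave r = 0.759, Col1a1 and Col1a2 r = 0.67, and Cxcl13 and Pecam1 r = -0.715. Leaving out the 2 libraries farthest from the median of the first gene, r was 0.774 for Col1a2 and Cxcl13, 0.824 for Col1a1 and Cxcl12, 0.564 for Col1a1 and Col1a2, and -0.165 for Cxcl13 and Pecam1. The last relation therefore rested on titled control 1 and titled control 3.

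**Figure D4:**
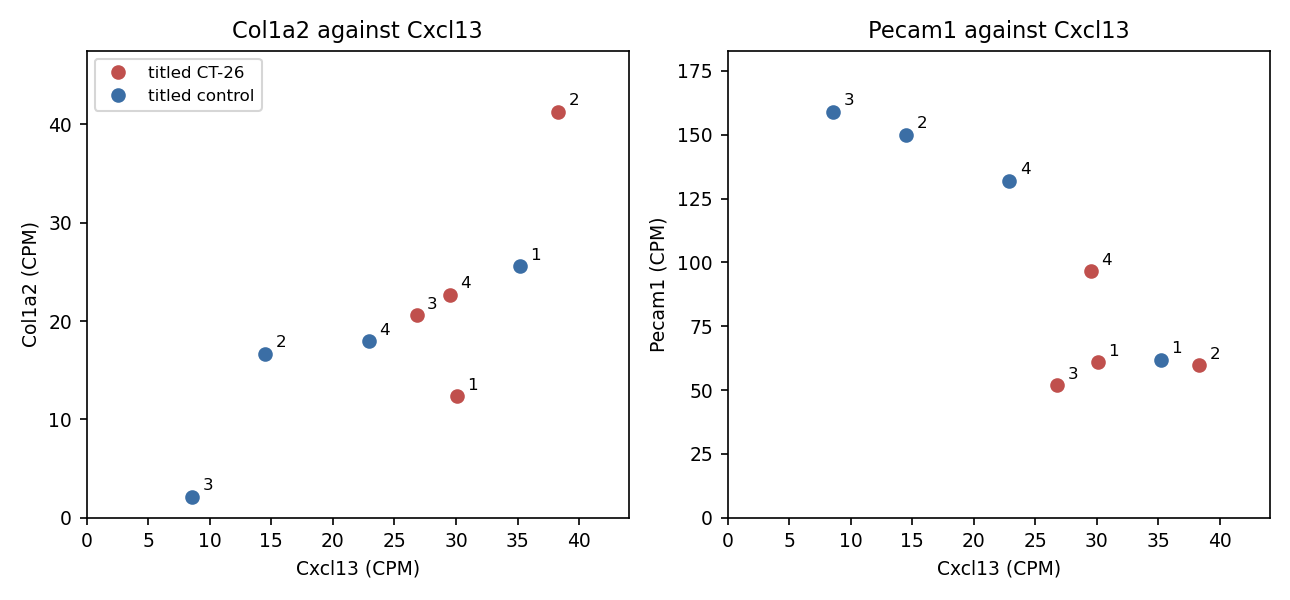
Col1a2 (left) and Pecam1 (right) against Cxcl13, all in CPM on linear axes from 0, with 1 numbered point per titled CT-26 or titled control library. Col1a2 is lowest in titled control 3, where Cxcl13 is also lowest at 8.59 CPM, and Pecam1 is highest in that library.

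Among 6407 other genes, those whose levels over the 8 libraries were most like Col1a1, again with set means removed, were Skp1a (r = 0.959), Lats2 (r = 0.956) and Zfp358 (r = 0.956). For Col1a2 they were Extl3 (r = 0.969), Usp37 (r = 0.966) and Zfp942 (r = 0.966), and for Cxcl13 they were Siah1a (r = 0.984), ENSMUSG00000118642 (r = 0.978), which has no symbol in the table used, and Oat (r = 0.956). For Cxcl12 they were Taldo1 (r = 0.979), Mgll (r = 0.967) and Gm10110 (r = 0.954), and for Pecam1 Igsf8 (r = 0.974), Vbp1 (r = 0.971) and Smg5 (r = 0.97). No other member or listed stromal gene is among them. These names come from the top of 6407 correlations over 8 points that share library, depth and scaling, and they carry no test.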

How the data were processed

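The members and the 21 gene lists were chosen with earlier results of these data known. The authors deposited raw counts of fragments per gene, made with featureCounts 2.0.1 on GENCODE M29 models without strand, per the file headers. Per the submitters' processing notes, Trimmomatic 0.39 trimmed the reads and STAR 2.7.10a placed them on the genome, with GRCm39 and GRCm38 both listed. Coordinates are those of the deposited tables, whose annotation is GRCm39. Symbols for 52081 of 55414 genes came from a reference table, and GENCODE M21 transcripts served for sequence only.

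Here the 8 RNA tables (total counts 735298 to 1970950) were filtered with filterByExpr, scaled with TMM over the genes kept, and compared by a robust quasi-likelihood fit in edgeR, with fold changes taken as titled CT-26 over titled control and p adjusted by Benjamini-Hochberg over 6408 genes at 0.05. Named genes are the 10 members, in each list up to 4 tested genes of smallest p, and for 5 members the 3 genes most alike. List genes called only in the fit with no filter, scarce markers and the Ccl21 copies were named after their values were seen. CPM use the TMM-scaled totals of the genes kept, and log2 CPM a prior count of 2. Each SE is the fold change over the root of F. Libraries of equal number did not deviate together (r of -0.0914 to 0.0764) and were not treated as pairs. No library was a copy of another of its own set, with a lowest chi-square per degree of freedom of 3.7. Pairs across the sets were not compared in this way. Alternatives were no TMM, DESeq2 size factors in edgeR, no filter, DESeq2's Wald test, a lane term (lane read from file names), a replicate block, mitochondrial genes left out, and each library left out. The test was also run on data simulated from the main fit. There it found 44% of 100 genes changed 2-fold and 91% of 100 genes changed 4-fold, with 11 false calls among 146. The simulated spread was that of the trend over genes of like level. Only those genes were changed, whereas 42.8% of genes were called in the data. These rates therefore do not carry over to members that varied more between libraries than the trend. Software was edgeR 4.0.16, limma 3.58.1 and DESeq2 1.42.0 in R 4.3.3, and pandas 2.3.3, numpy 2.4.6, scipy 1.17.1 and matplotlib 3.10.9 in Python 3.11.15.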

Additional observations from a re-analysis of the deposited data

Results flagged for a closer look

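A single library stood apart from the other 3 of its set in 7 of 134 gene and set combinations with 10 or more counts, where about 1 in 20 would do so by chance. Among the members this was Cxcl12 in titled CT-26 1, which was low at 14.1 CPM. In the pancreas list, Cela1 was high in titled control 4 at 58.9 CPM. Cpa1 was high in titled CT-26 3 at 148 CPM and in titled control 4 at 363 CPM. Ctrb1 was high in titled CT-26 3 at 578 CPM and in titled control 4 at 488 CPM. In the matrix list, Fn1 was high in titled control 3 at 10.7 CPM, and this library had the lowest Col1a2. Titled control 4 accounts for 3 of the 7.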

How the results depend on the processing

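Depth limits these genes: Col3a1, Ccl19 and Ccl21a had too few counts for the main test. Over the named genes and all alternatives, 1069 values kept their direction and side of the threshold, 47 passed it newly, 41 no longer passed it and 27 changed sign. With a library left out, Smad4 was not called without titled CT-26 2 and titled control 2 and 4 (-0.73 to -0.7), Skil without titled CT-26 2 and 3 and titled control 3 (-0.78 to -0.64), and Chuk without titled CT-26 4 and titled control 2 and 3 (-0.6 to -0.54). Pecam1 was called in every alternative run except that without TMM. The number of members called was 3 without TMM (Col1a1, Col1a2 and Cxcl13, all higher), where 41.5% of all genes were called. It was 3 with no filter (Col1a1 higher, Pecam1 and Ccl21a lower), where 18.0% were called. With a library left out it was 1 to 2, with 1236 to 1486 of all genes called higher and 1251 to 1462 lower. It was 2 with no filter and without titled control 4, and 2 with no filter and without titled CT-26 2. For these fits the share of all genes called was not counted, so the number is not read as a result. The alternatives that leave out both of those libraries, or leave out one of them with no filter, were chosen after seeing the data. Col1a1 with no filter was at 1.62 (edgeR adjusted p = 0.000123), and at 0.86 (adjusted p = 0.181) without titled CT-26 2. Its SE with no filter was 0.36, against 0.68 in the main fit. Genes called lower numbered 725 without TMM against 1381, and genes called higher 1936 against 1359; with no filter 1664 were higher and 1720 lower. Equal replicate numbers only share a number. With a replicate block, genes higher in titled CT-26 RNA libraries numbered 1340, genes lower in titled CT-26 RNA libraries 1328, and 1 member was called, Pecam1 at -0.87.

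These log2 fold changes changed sign. Without TMM they were Cxcl12 0.05, Ehd3 0.07, Fcgr2b 0.12, Plvap 0.26 and Stab2 0.01. With lane they were Cd93 -0.06, Ctrb1 -3.35, Fcgr2b 0.01 and Ppib -0.05, and with the replicate block Ctrb1 -0.85 and Plvap 0.07. With a library left out they were Plvap 0.07 (titled CT-26 1), 0.01 (titled CT-26 3) and 0.61 (titled control 4), Mfge8 -0.04 (titled CT-26 2), Ctrb1 -3.30 (titled CT-26 3) and -0.32, -0.33 and -0.24 (titled control 1, 2 and 3), and Cpa1 0.31 and Cxcl12 0.22 (titled control 4). Over the libraries left out these genes ranged from -0.61 to 0.61 for Plvap, -0.04 to 1.08 for Mfge8, -3.30 to 2.05 for Ctrb1, -3.69 to 0.31 for Cpa1 and -0.63 to 0.22 for Cxcl12. Without both libraries Cpa1 was 0.64 and Cxcl12 0.15. With no filter they were Cpa1 0.40, Cxcl12 0.29 and Plvap 0.67 without titled control 4, and Fcgr2b 0.09 without titled CT-26 2. Apart from the sign changes that follow from the library left out, the cause was not tested.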

Other observations

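Bgn, the gene of the matrix proteoglycan biglycan, had 168 counts in titled CT-26 and 337 in titled control over 4 libraries each, more than any collagen member, but 225 of the titled control counts were in titled control 4, and the other 3 titled control libraries had 57, 26 and 29. Madcam1, the adhesion molecule of the marginal sinus lining in the mouse spleen, had 9 counts in titled CT-26 and 9 in titled control. Among the fibroblast and follicular stroma genes, 3 of 16 were tested and 1 was called lower, Coch at -1.23 ± 0.47 (edgeR adjusted p = 0.0419). That call ended without TMM, with a replicate block (-1.17, edgeR adjusted p = 0.0812) and without any 1 of titled CT-26 1, 3 and 4 and titled control 1, 3 and 4, with values of -1.24 to -0.82. Tcf21, under the filter, was called lower in the fit with no filter at -2.37 (edgeR adjusted p = 0.00654). Titled control 4 held 25 of its 40 titled control counts. Clu and Mfge8, both expressed by follicular dendritic cells, had log2 fold changes of 0.53 and 0.54, neither called, although Clu was called higher without TMM (1.0, edgeR adjusted p = 0.0128) and Mfge8 was at -0.04 without titled CT-26 2. Of 12 smooth muscle and pericyte genes 1 was tested, Mylk at -0.69 (edgeR adjusted p = 0.17), which was not called. Of 10 erythroid markers all were called higher, where 21.2% of all genes tested were. Their summed level was 3100 to 5730 CPM in titled CT-26 and 812 to 987 CPM in titled control libraries.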
